A study of Mus musculus with 7 samples.

Results

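The 34 genes described here encode proteins that bring surfactant lipid into alveolar macrophages, hold it in droplets, break it down, send sterol back out and regulate those steps. They were chosen by name from this pathway, with earlier results of these data known. They were matched to the deposited gene table through their Entrez numbers. All 34 were found among its 27179 genes, and 33 of them, all but Cidea, had enough counts to be tested. Alveolar macrophages are the resident phagocytes of the airspace. They clear spent surfactant, a film of phospholipid and cholesterol made by the alveolar epithelium. Lipid enters through receptors and lipases and is carried in the cytosol by fatty acid-binding proteins. It is stored as triglyceride and cholesteryl ester, and cholesterol leaves through ABC transporters onto apolipoproteins. The nuclear receptors PPARγ and LXR, each paired with RXR, control much of this set, and failure of this clearance is known from pulmonary alveolar proteinosis.

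RNA came from macrophages sorted from lungs of bone marrow chimeras, with 3 Suz12 cKO and 4 wild type libraries, each called a separate individual by its title. Suz12 encodes a core subunit of the polycomb repressive complex PRC2, and cKO stands for conditional knockout. Recipients in both groups were lethally irradiated C57BL/6-Ly5.1 mice. In the Suz12 cKO group 90% of the donor marrow was Suz12 cKO Ly5.2, and in the wild type group the same share was wild type Ly5.2; the other 10% was wild type Ly5.1 marrow in both. The labels name no Cre driver, deleted exon or age, and do not say whether macrophages of competitor or recipient origin were gated out. The comparison asks how lipid-handling transcripts differ when 90% of the donor marrow is Suz12 cKO.

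Libraries held 48104653 to 79281431 counts. Suz12 stood at 22.1, 23.6 and 15.1 CPM (counts scaled to library size by TMM) in the Suz12 cKO libraries, against 56.5, 56.3, 73.9 and 68.9 CPM in the wild type ones, both in the order of their replicate numbers. Each Suz12 cKO library was below each wild type library (log2 fold change -1.65, SE 0.18, adjusted p = 0.00134). All 13 alveolar macrophage markers outside the 34 genes were detected; 6 rose and 1 fell, against 6.28% and 4.02% of all tested genes. The most abundant were Chil3, Cd9 and Ear2. Chil3, not called, averaged 19467 ± 1469.9 CPM in Suz12 cKO and 17223 ± 1420.1 CPM in wild type (adjusted p = 0.188), while Cd9 fell and Ear2 rose. Haemoglobin RNA, which is made by red cell precursors, was at 192 CPM in replicate 1 and 155 CPM in replicate 2 of Suz12 cKO, and at 56.6 CPM in wild type replicate 2, and between 2.29 and 5.17 CPM in the other 4 libraries. Results are therefore also given within the 3 libraries over 20 CPM and within the 4 under it. In these bulk samples, fewer cells of a kind and less RNA per cell cannot be told apart.

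Of the 33 tested genes, Fabp4, Fabp1, Cd36, Apoe and Plin1 rose and Rxra fell at an adjusted p under 0.05 (edgeR quasi-likelihood test, adjusted over all 14436 tested genes). The 5 increases were 15.2% of the tested members, against 6.28% of all tested genes called higher. The 1 decrease was 3.03%, against 4.02% of all tested genes called lower. The other 27 were not called. The median log2 fold change was 0.08 over the 33 members and 0.00 over all tested genes, and 20 of the 33 were above 0. By role, 3 of 7 uptake and carrier genes rose, 1 of 8 tested droplet genes rose, 0 of 6 hydrolysis and lysosomal export genes were called, 1 of 6 efflux genes rose and 1 of 6 regulators fell. Among the 6 hydrolysis genes, 4 had an unadjusted p under 0.05 by edgeR, and DESeq2 called 1, Pla2g15. Of the 6 regulators, 4 also had an unadjusted p under 0.05 by edgeR. DESeq2 called 4 of them, Cebpa, Nr1h3 and Rxra lower and Nr1h2 higher. It called 2 droplet genes, Plin1 and Dgat1, both higher. Over all genes DESeq2 called 1457 higher and 864 lower, against 906 and 580 by edgeR, so the edgeR shares are no background for its calls. The share of all genes with an unadjusted p under 0.05 is not given here. Ranges of the groups did not overlap for 9 members that were higher, against 14.1% of all tested genes, and for 3 that were lower, against 11.5%. Leaving out Suz12 cKO replicates 1, 2 and 3 in turn left 2, 2 and 3 members that rose. Leaving out wild type replicate 3 left 2, and leaving out wild type replicate 2 gave 10. Over all genes 479, 447, 562, 546 and 1515 rose in these fits, in the order named, against 906 in the main fit. Members that fell numbered 0 when Suz12 cKO replicates 1 or 2, or wild type replicates 1 or 3, were left out, and 2 when wild type replicate 2 was. Over all genes 309, 268, 299, 317 and 885 fell in these fits, in the order named, against 580 in the main fit. Without Suz12 cKO replicate 3, where 480 genes fell, the 1 member that fell was Plin3, in place of Rxra.

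**Figure D1:**
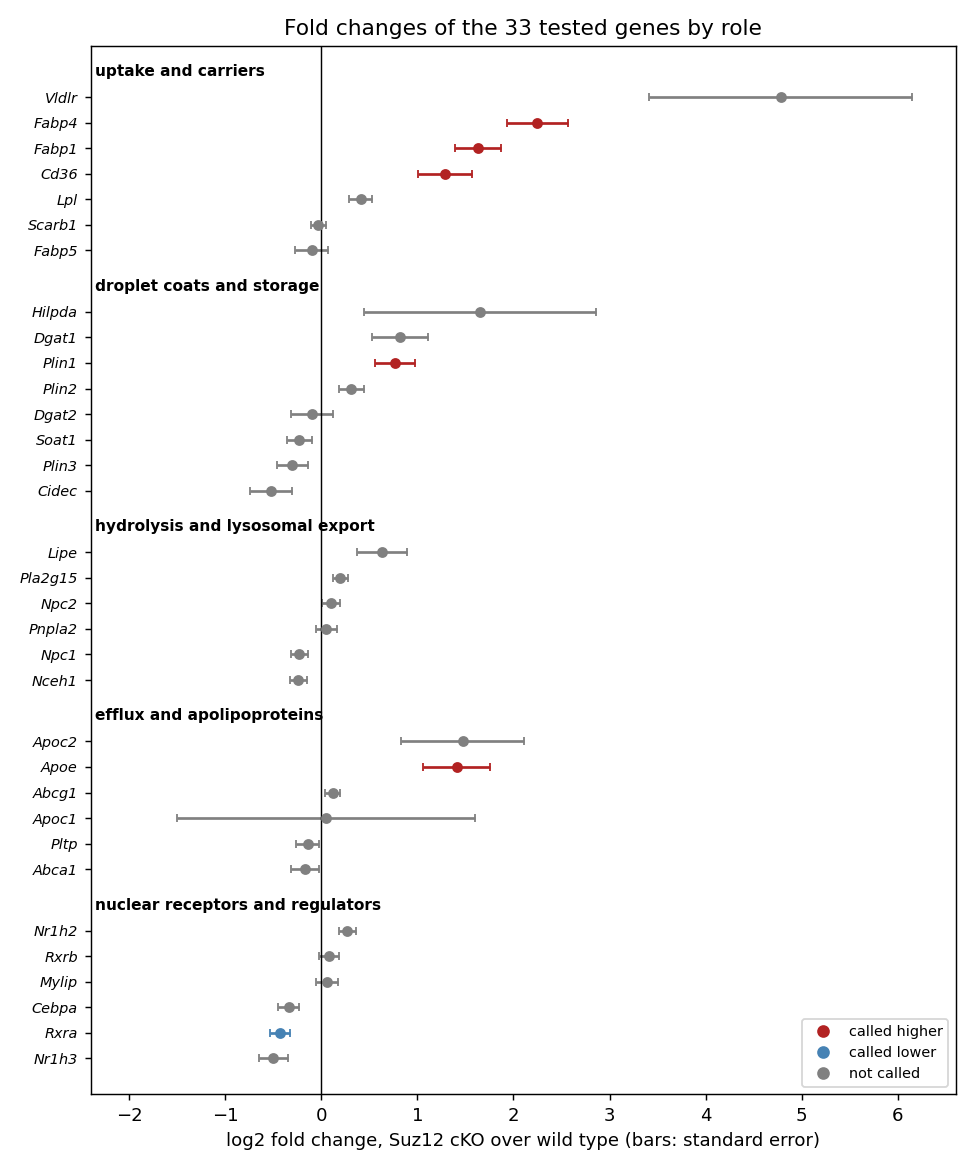
Log2 fold change of Suz12 cKO over wild type on the horizontal axis for the 33 tested genes in blocks by role, with the standard error as bars; red points were called higher, blue lower and grey were not called. Uptake and carrier genes hold 3 of the 5 increases, and Vldlr, at 4.78, has a wide error.

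The clearest increases were in the intracellular fatty acid carriers. Fabp4 (Entrez 11770, chr3:10204342-10208616 in GRCm38), the carrier typical of fat cells and of alveolar macrophages, stood at 289, 479 and 231 CPM in the Suz12 cKO libraries, against 108, 68.6, 47.9 and 54.6 CPM in wild type. The groups did not overlap, and the lowest Suz12 cKO library was above the highest wild type one. The means were 333 ± 129.7 CPM in Suz12 cKO and 69.9 ± 27.1 CPM in wild type (SD, n = 3 and n = 4), a log2 fold change of 2.25 (SE 0.32, adjusted p = 0.00374). Fabp1 (Entrez 14080, chr6:71199879-71205034), the carrier best known from liver, was at 120.0, 199.6 and 91.0 CPM in the Suz12 cKO libraries, against 46.4, 50.3, 38.1 and 42.1 CPM in wild type. Its wild type libraries lay close together, while Suz12 cKO replicate 2 held the highest value, as it did for Fabp4. The log2 fold change of Fabp1 was 1.63 (SE 0.24, adjusted p = 0.00394). These were the 2 members called in each of the 15 alternative settings. Their adjusted p ran up to 0.0351 for Fabp4 and 0.0175 for Fabp1 over those settings, and their log2 fold changes ran between 1.70 and 2.54 and between 1.10 and 1.84.

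Fabp5, the carrier encoded on the same chromosome as Fabp4 and widely expressed in macrophages, gave another picture. It had 46.8, 55.5 and 69.7 CPM in the Suz12 cKO libraries, against 74.9, 49.8, 58.9 and 61.6 CPM in wild type, with overlapping groups (log2 fold change -0.10, SE 0.17, adjusted p = 0.799; above 0, up to 0.08, in 5 of 15 alternatives). Together the 3 carriers summed to 1643, 2628 and 1322 TPM (counts scaled by gene length and library size) in Suz12 cKO, against 715, 546, 442 and 489 TPM in wild type. Of that sum Fabp4 made up 60.4, 61.6 and 58.0% in Suz12 cKO and 49.1, 40.7, 34.7 and 35.9% in wild type. Fabp5 made up 6.75, 4.92 and 12.1% in Suz12 cKO and 23.4, 20.4, 29.4 and 27.9% in wild type. Fabp4 was thus the leading carrier transcript by length-scaled level in each Suz12 cKO library. Among wild type libraries it led in replicates 1 and 2, while Fabp1 had slightly the larger share in replicates 3 and 4, at 36.0 and 36.1%.

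Cd36 (Entrez 12491, chr5:17781690-17888959), the membrane transporter and scavenger receptor for long-chain fatty acids and oxidised lipid, also rose. It had 766, 972 and 889 CPM in the Suz12 cKO libraries, against 423, 527, 275 and 205 CPM in wild type. No wild type library reached the lowest Suz12 cKO library, although wild type replicates 1 and 2 held clearly more than replicates 3 and 4. The log2 fold change was 1.29 (SE 0.28, adjusted p = 0.0222). Leaving out Suz12 cKO replicate 1, 2 or 3 gave an adjusted p of 0.0517, 0.0851 or 0.0634, and leaving out wild type replicate 3 gave 0.0651, with log2 fold changes of 1.09 to 1.53 over the 7 fits that leave out a library. Within the 3 libraries over 20 CPM of haemoglobin it was 0.72 (adjusted p = 0.0299), and within the 4 under it 1.55 (adjusted p = 0.0254), both fits taking the spread of the single library of a genotype from the rest.

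The promoter windows of Fabp1 and Cd36 show the letters next to a RefSeq start of each gene, since the nuclear receptors of this pathway bind repeats of a hexamer. RefSeq windows of 300 bases (250 before to 50 after the start, GRCm38.p6) were found for 24 of the 34 members, 33 windows in all. In Fabp1 (chr6:71199629-71199928, plus strand) capitals mark a match to the direct repeat AGGNCANAGGNCA, on the reverse strand, and a TATAAA box. In Cd36 (chr5:17835847-17836146, minus strand) they mark a single half-site AGGTCA, also on the reverse strand. The Cd36 start lies inside the span of the gene, as do those printed further on for Plin1, Apoe, Hilpda and Rxra. Each of these is a start other than the outermost one. Which start these cells use was not tested.
Fabp1: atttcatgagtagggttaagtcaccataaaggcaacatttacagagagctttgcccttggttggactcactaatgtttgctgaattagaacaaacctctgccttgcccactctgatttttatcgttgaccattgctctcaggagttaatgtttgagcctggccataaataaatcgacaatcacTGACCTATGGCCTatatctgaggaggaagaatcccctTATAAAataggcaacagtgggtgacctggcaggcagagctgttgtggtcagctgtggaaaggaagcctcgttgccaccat
Cd36: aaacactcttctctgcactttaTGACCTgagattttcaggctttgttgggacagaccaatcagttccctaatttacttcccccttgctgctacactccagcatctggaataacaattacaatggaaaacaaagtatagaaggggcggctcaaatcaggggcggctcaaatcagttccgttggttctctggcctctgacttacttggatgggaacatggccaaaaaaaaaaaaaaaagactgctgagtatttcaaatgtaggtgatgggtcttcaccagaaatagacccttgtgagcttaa
The Fabp1 repeat reads TGACCTATGGCCT and begins 67 bases before the start, and its TATAAA begins 30 bases before it. The same repeat, searched on both strands, was present in 0.381% of all 32851 windows and in 2 of the 33 member windows, those of Fabp1 and Apoc2. The half-site AGGTCA, part of some of these repeats, was in 16.3% of all windows and in 5 member windows. A repeat with a spacer of 4 bases, AGGNCANNNNAGGNCA, was in 0.253% of all windows and in 0 member windows. Both windows are poor in CpG: each holds 3, against a median of 13 over member windows and 7 over all windows, and 31.4% of all windows hold at most 3. A match of letters is a description and not a binding site.

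The other 4 uptake and carrier genes were not called by edgeR, while DESeq2 called Lpl and Vldlr higher. Lpl, lipoprotein lipase, which frees fatty acids from triglyceride, was the most abundant member by length-scaled level in both groups, at 3106 ± 393 TPM in Suz12 cKO and 2227 ± 320.2 TPM in wild type. It had 6311, 5972 and 5075 CPM in the Suz12 cKO libraries, against 5011, 4671, 4085 and 3652 CPM in wild type. The groups did not overlap, by a narrow margin between Suz12 cKO replicate 3 and wild type replicate 1. The log2 fold change was 0.41 (SE 0.12, adjusted p = 0.0583), and the adjusted p ranged between 0.00373 and 0.396 over the alternatives, 7 of which called it. Vldlr, a receptor for triglyceride-rich lipoproteins, was at 1.29, 1.72 and 2.76 CPM in the Suz12 cKO libraries, against 0.0871, 0.181, 0 and 0 CPM in wild type, where it was close to absent. That is 392 counts in the Suz12 cKO libraries and 18 in the wild type ones, and the difference missed the threshold in edgeR (log2 fold change 4.78, SE 1.37, adjusted p = 0.0607), though 4 of 15 alternatives called it. Scarb1, the receptor for high-density lipoprotein, averaged 196 ± 10.7 CPM in Suz12 cKO and 200.2 ± 9.41 CPM in wild type (log2 fold change -0.03, adjusted p = 0.889; 0.06 within the 3 libraries high in haemoglobin).

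**Figure D2:**
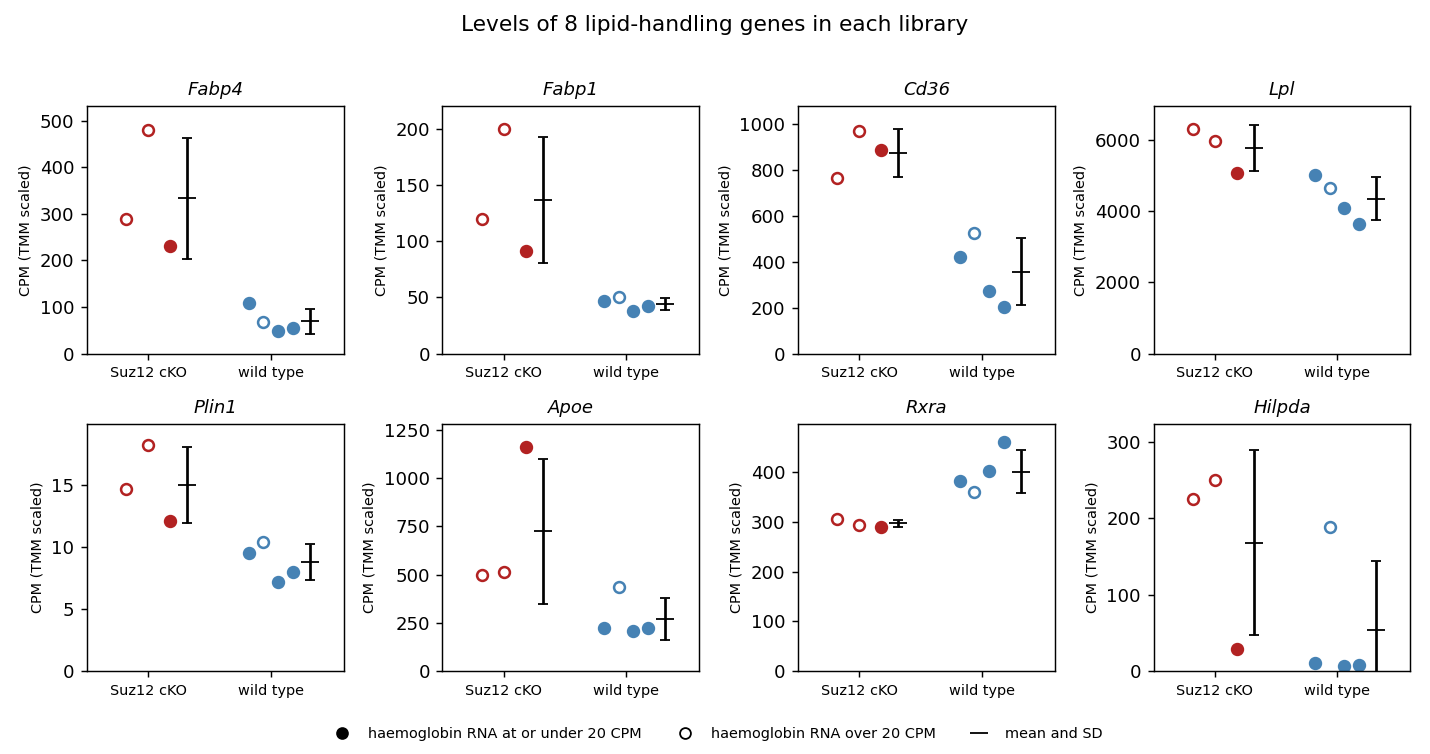
CPM on the vertical axis for 8 of the genes, with 1 point per library, Suz12 cKO in red and wild type in blue; open points are libraries over 20 CPM of haemoglobin RNA, and black bars give mean and SD, with bars cut at 0. For Fabp4, Fabp1, Cd36, Lpl, Plin1 and Apoe the red points all lie above the blue ones, for Rxra all below, and Hilpda goes with the open points.

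Fat cells express Cd36, Fabp4 and Lpl, and capillary endothelium expresses Cd36 and Fabp4, so the markers of both were read beside these results. Of 6 fat cell markers that are not members, Adipoq, Lep and Aqp7 had no count in any library. The 6 summed to 1.01, 2.51 and 0 CPM in Suz12 cKO and to 0.274, 0, 0.170 and 0 CPM in wild type, with Adrb3, Retn and Cfd the most abundant, and 0 of 2 tested were called by edgeR (0 with an unadjusted p under 0.05) or DESeq2. Of 10 endothelial markers 0 of 7 tested were called by edgeR (0 with an unadjusted p under 0.05) or DESeq2, and Emcn had no count. They summed to 79.2, 85.0 and 114 CPM in Suz12 cKO and to 107, 102, 98.2 and 102 CPM in wild type, most of it Vwf, followed by Pecam1 and Cdh5. Apart from Vwf, the tested endothelial markers had SEs of 1.32 to 2.36 on the log2 scale. Those of the tested fat cell markers, Retn and Adrb3, were 1.94 and 2.14. With so few counts and such wide errors the lack of a call says little. Of 9 neutrophil markers S100a8, Cxcr2 and Retnlg, 3 of 5 tested, rose. The 9 summed to 59.4, 101 and 68.0 CPM in Suz12 cKO and to 26.1, 29.5, 16.2 and 13.2 CPM in wild type, with S100a9 next after S100a8 and Cxcr2, and Ly6g and Camp at 0. The part of fat cells, endothelium or neutrophils in the lipid results was not tested.

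Of the 8 tested droplet genes edgeR called 1. Plin1 (Entrez 103968, chr7:79721164-79732904), the droplet coat of fat cells that gates lipase access, rose at a low level. It had 14.6, 18.2 and 12.1 CPM in the Suz12 cKO libraries, against 9.49, 10.4, 7.20 and 7.98 CPM in wild type, without overlap. The log2 fold change was 0.77 (SE 0.21, adjusted p = 0.0476), close to the threshold, and 10 of 15 alternatives did not call it. Among fits without 1 library, the call remained without Suz12 cKO replicate 3 (adjusted p = 0.0470) and without wild type replicate 2 (adjusted p = 0.0276), and the others gave adjusted p of 0.0861 to 0.191. Its promoter window (chr7:79732727-79733026, minus strand, 2 CpG) is printed because Plin1 is a textbook fat cell gene, and capitals mark the pair of matches to TTGCNNAA, a form of the C/EBP site.
Plin1: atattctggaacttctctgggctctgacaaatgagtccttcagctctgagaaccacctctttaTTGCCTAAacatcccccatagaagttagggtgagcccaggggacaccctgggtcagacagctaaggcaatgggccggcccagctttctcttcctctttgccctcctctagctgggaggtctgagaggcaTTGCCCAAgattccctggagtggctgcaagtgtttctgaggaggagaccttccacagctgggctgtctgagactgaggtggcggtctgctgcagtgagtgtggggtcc
TTGCNNAA, searched on both strands, was present in 10.8% of all windows and in 6 of 33 member windows.

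Plin2, the main droplet coat of macrophages, had rank 2 in length-scaled level in both groups, at 1639.9 ± 207 TPM in Suz12 cKO and 1265 ± 189 TPM in wild type. It had 1347, 1627 and 1302 CPM in the Suz12 cKO libraries, against 1162, 1385, 1039.6 and 1023 CPM in wild type, with wild type replicate 2 inside the Suz12 cKO range (log2 fold change 0.31, adjusted p = 0.170). Plin3, a coat that exchanges with the cytosol, had a log2 fold change of -0.30 (adjusted p = 0.282). Cidec, which drives droplet fusion, was at 221, 175 and 104 CPM in the Suz12 cKO libraries, against 219, 257, 243 and 237 CPM in wild type. Its wild type libraries were tight and its Suz12 cKO libraries were not, with replicate 3 lowest (log2 fold change -0.52, SE 0.22, adjusted p = 0.177). With a term for haemoglobin class Cidec fell, by 0.79 on the log2 scale (adjusted p = 0.0217), and adjusted p ranged between 0.00467 and 0.294 over the alternatives, the lowest from the low set with its 1 Suz12 cKO library. Cidea, its relative of brown fat, had 15 counts in the Suz12 cKO libraries and 0 in wild type, and was not tested.

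Hilpda, a small hypoxia-inducible droplet protein that inhibits the lipase ATGL, varied with haemoglobin class. It had 225, 250.4 and 29.3 CPM in the Suz12 cKO libraries, against 10.5, 189, 6.68 and 8.08 CPM in wild type. The 3 libraries over 20 CPM of haemoglobin held 189 to 250.4 CPM and the other 4 held 6.68 to 29.3 CPM. Over all libraries its log2 fold change was 1.65 with an SE of 1.21 (adjusted p = 0.466). With a term for haemoglobin class it was 1.09 (adjusted p = 0.0309), within the 4 low libraries 1.78 (adjusted p = 0.00967) and within the 3 high ones 0.33 (adjusted p = 0.230), where the low set holds 1 Suz12 cKO library and the high set 1 wild type library. Without wild type replicate 2 it was 4.30, and adjusted p ranged between 0.00398 and 0.706 over all alternatives. Dgat1, which makes triglyceride in its last step, was at 69.5, 105 and 51.8 CPM in the Suz12 cKO libraries, against 38.7, 65.2, 31.0 and 35.3 CPM in wild type. Wild type replicate 2 again stood apart from the other wild type libraries (log2 fold change 0.82, adjusted p = 0.119). Plin2, Hilpda, Dgat1 and Dgat2 were each higher in all 3 libraries high in haemoglobin than in the other 4, a pattern of 8.60% of all tested genes. Fabp5, Plin3, Soat1 and Nr1h3 were lower in all 3, a pattern of 5.94%. What sets the 3 libraries apart was not tested. The Hilpda window (chr6:29272376-29272675, plus strand, 27 CpG) is shown with its ACGTG, the core of the hypoxia response element, in capitals.
Hilpda: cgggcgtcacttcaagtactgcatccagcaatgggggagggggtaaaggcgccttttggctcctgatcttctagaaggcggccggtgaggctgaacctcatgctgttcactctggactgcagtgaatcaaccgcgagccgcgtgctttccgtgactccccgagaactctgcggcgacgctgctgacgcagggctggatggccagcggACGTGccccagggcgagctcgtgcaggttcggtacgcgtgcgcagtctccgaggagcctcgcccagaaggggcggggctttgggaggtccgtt
ACGTG, searched on both strands, was in 19.6% of all windows and in 7 member windows, and begins 43 bases before the start in this one.

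**Figure D3:**
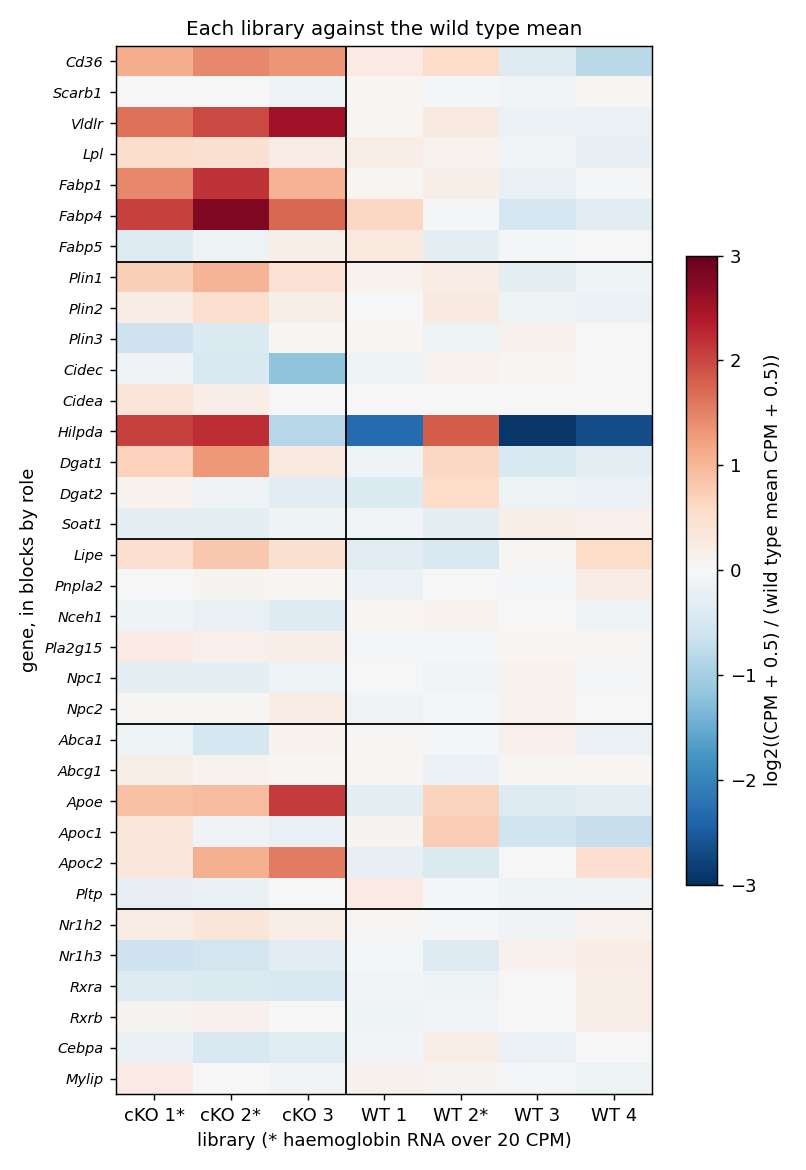
Level of each of the 34 genes in each library against the wild type mean, as log2((CPM + 0.5) / (wild type mean CPM + 0.5)), red above and blue below, with colours capped at 3; Suz12 cKO libraries are on the left and asterisks mark libraries over 20 CPM of haemoglobin RNA. Fabp4, Fabp1 and Cd36 are red in the 3 Suz12 cKO columns, whereas Hilpda is red in the asterisked columns.

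Dgat2, the other triglyceride synthase, averaged 96.5 ± 14.6 CPM in Suz12 cKO and 103 ± 33.3 CPM in wild type (log2 fold change -0.10, adjusted p = 0.853; 0.14 without wild type replicate 2). Soat1, which esterifies cholesterol for storage, averaged 247 ± 16.0 CPM in Suz12 cKO and 290.1 ± 43.3 CPM in wild type (adjusted p = 0.317). On the side of hydrolysis, Lipe, hormone-sensitive lipase, was at 14.0, 17.2 and 13.5 CPM in the Suz12 cKO libraries, against 7.49, 6.93, 9.88 and 14.4 CPM in wild type. Wild type replicate 4 lay among the Suz12 cKO libraries (log2 fold change 0.63, SE 0.26, adjusted p = 0.186). Pnpla2, which encodes ATGL, the first lipase of triglyceride breakdown, differed by 0.05 on the log2 scale (SE 0.11, adjusted p = 0.851). Nceh1, a hydrolase of cholesteryl esters, had a log2 fold change of -0.24 and Pla2g15, the lysosomal phospholipase that degrades surfactant phospholipid, one of 0.20 (adjusted p = 0.147 and 0.151). Pla2g15 stood at 472, 440.1 and 449 CPM in the Suz12 cKO libraries, against 377, 386, 413 and 406 CPM in wild type, without overlap. Npc1 and Npc2, which hand cholesterol out of the lysosome, differed by -0.23 and 0.10 on the log2 scale (adjusted p = 0.145 and 0.545). Npc2, the most abundant of the 6 by length-scaled level, had 576, 578 and 652 CPM in the Suz12 cKO libraries, against 525, 551, 604 and 568 CPM in wild type, with overlap. Npc1, Pltp and Nr1h3 share genomic span with Rmc1, Ctsa and Acp2, and no source used here says whether counting used strand, so their values are less certain.

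Of the efflux genes, Apoe (Entrez 11816, chr7:19696244-19701310), the apolipoprotein that macrophages secrete to carry cholesterol away, rose. It had 497, 515 and 1159 CPM in the Suz12 cKO libraries, against 223, 434, 207 and 224 CPM in wild type. Suz12 cKO replicate 3 held more than any other library, and wild type replicate 2 came near the lower Suz12 cKO libraries without reaching them. The log2 fold change was 1.41 (SE 0.35, adjusted p = 0.0382). It was 2.40 within the 4 libraries low in haemoglobin (adjusted p = 3.6e-04) and 0.22 within the 3 high ones (adjusted p = 0.352). The first of these sets 1 Suz12 cKO library, the one with the most Apoe, against 3 of wild type, and the second sets 2 against 1, so neither p reflects replicates in both groups. Without Suz12 cKO replicate 3 it was 0.88 (adjusted p = 0.117). The other fits without 1 library gave adjusted p of 0.0510 and 0.0581 without Suz12 cKO replicates 1 and 2, and 0.103, 0.00562, 0.108 and 0.0988 without wild type replicates 1 to 4. By length-scaled level Apoe was the member of rank 3 in Suz12 cKO, at 1249.7 ± 631 TPM, and of rank 5 in wild type, at 451 ± 181 TPM. Its window with a TATAAA box (chr7:19698572-19698871, minus strand, 12 CpG), 1 of 3 for this gene, is printed with the match and an overlapping match on the other strand in capitals.
Apoe: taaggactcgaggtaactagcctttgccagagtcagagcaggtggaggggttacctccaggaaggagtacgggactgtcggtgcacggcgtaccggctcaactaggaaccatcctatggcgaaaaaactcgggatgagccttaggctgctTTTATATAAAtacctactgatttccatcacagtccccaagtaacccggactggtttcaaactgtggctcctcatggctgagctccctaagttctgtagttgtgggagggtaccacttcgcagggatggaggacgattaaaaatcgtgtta
TATAAA, searched on both strands, was in 13.6% of all windows and in 6 member windows; here it begins 96 bases before the start.

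Apoe is also a product of monocyte-derived and interstitial macrophages, so their markers were set beside it. The 13 markers on the list summed to 37589.9, 36426 and 44441 CPM in Suz12 cKO and to 45621, 33782, 46309 and 38125 CPM in wild type, nearly all of it Lyz2, with Cd14 and Mertk next. Cd14 had 810.4, 853 and 259.8 CPM in the Suz12 cKO libraries, against 152, 1029.9, 132 and 131 CPM in wild type. The part of other macrophages in the Apoe result was not tested.

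Neither ABC transporter among the 34 genes was called by edgeR. Abcg1, which moves cholesterol to high-density lipoprotein and whose loss fills alveolar macrophages with lipid in mice, was at 2970.3, 2823 and 2730.3 CPM in the Suz12 cKO libraries, against 2739, 2317, 2704 and 2725 CPM in wild type. All but wild type replicate 2 lay close together (log2 fold change 0.12, SE 0.08, adjusted p = 0.407; -0.01 within the 4 libraries low in haemoglobin). Abca1, which loads lipid-poor apolipoproteins, averaged 311 ± 65.8 CPM in Suz12 cKO and 349 ± 32 CPM in wild type (log2 fold change -0.17, adjusted p = 0.557; 0.07 within the 4 low libraries). Pltp, the phospholipid transfer protein, had a log2 fold change of -0.14 (adjusted p = 0.539). Apoc2, the activator of lipoprotein lipase, and Apoc1 lie beside Apoe on chromosome 7 but were scarcely transcribed. Apoc2 was at 1.17, 2.27 and 3.39 CPM in the Suz12 cKO libraries, against 0.610, 0.476, 0.834 and 1.36 CPM in wild type (log2 fold change 1.47, SE 0.64, adjusted p = 0.196). Apoc1 had 64 counts over the Suz12 cKO libraries and 83 over the wild type ones, too few to show a difference of either sign.

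**Figure D4:**
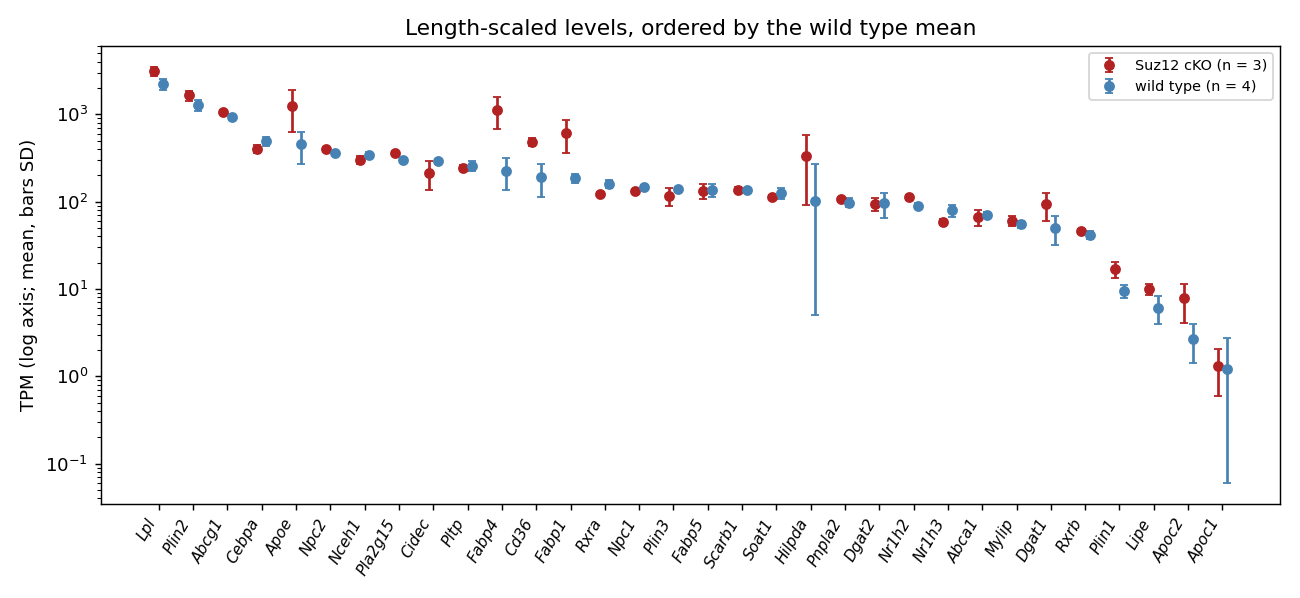
Mean TPM on a log axis for the 32 members over 1 TPM in a group, in the order of the wild type mean, Suz12 cKO (n = 3) in red left of wild type (n = 4) in blue, with SD as bars, cut short below where the SD reaches the mean. Lpl and Plin2 lead in both groups, while Fabp4 has rank 4 in Suz12 cKO and rank 11 in wild type.

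Among regulators, Rxra (Entrez 20181, chr2:27676445-27763319), the shared partner of PPARγ and LXR, fell. It had 306, 295 and 291 CPM in the Suz12 cKO libraries, against 382, 361, 403 and 461 CPM in wild type. Suz12 cKO libraries were tight and all below wild type (297 ± 7.87 CPM in Suz12 cKO and 402 ± 43.2 CPM in wild type, log2 fold change -0.43, SE 0.10, adjusted p = 0.0279). The call was lost without any Suz12 cKO replicate (adjusted p = 0.0753, 0.0960 and 0.0771) and without wild type replicate 1 or 3 (0.0545 and 0.0709). Nr1h3, which encodes LXRα, the form most tied to macrophages, was at 50.3, 53.0 and 61.3 CPM in the Suz12 cKO libraries, against 76.2, 59.9, 84.9 and 90.4 CPM in wild type. Only wild type replicate 2 lay inside the Suz12 cKO range (log2 fold change -0.50, SE 0.15, adjusted p = 0.0643). Nr1h2, which encodes LXRβ, was at 98.9, 110.0 and 98.4 CPM in the Suz12 cKO libraries, against 87.0, 83.5, 78.3 and 91.0 CPM in wild type, without overlap in the other direction (log2 fold change 0.27, SE 0.09, adjusted p = 0.0986). Cebpa, a C/EBP factor of macrophages and fat cells, had 542, 453 and 480.3 CPM in the Suz12 cKO libraries, against 587, 717, 555 and 629 CPM in wild type, without overlap (log2 fold change -0.34, SE 0.11, adjusted p = 0.0889). Rxrb and Mylip, the LXR target that degrades lipoprotein receptors, differed by 0.08 and 0.06 on the log2 scale (adjusted p = 0.721 and 0.808; both below 0 within the 4 libraries low in haemoglobin, at -0.03 and -0.08). The Rxra window is printed to set a CpG-rich start beside those of Fabp1, Cd36 and Plin1. It lies at chr2:27676951-27677250 on the plus strand, has 55 CpG, the most of the member windows, and each CG is in capitals.
Rxra: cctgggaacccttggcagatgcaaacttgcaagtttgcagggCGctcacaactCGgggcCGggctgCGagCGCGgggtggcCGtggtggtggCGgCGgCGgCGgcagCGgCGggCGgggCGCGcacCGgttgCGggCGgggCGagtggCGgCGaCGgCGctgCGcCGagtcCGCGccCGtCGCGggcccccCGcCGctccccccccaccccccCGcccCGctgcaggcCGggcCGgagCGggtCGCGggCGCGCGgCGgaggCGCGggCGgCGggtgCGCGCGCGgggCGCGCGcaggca
The 3 windows of Fabp1, Cd36 and Plin1 hold 2 or 3 CpG, and 5 of the 33 member windows hold 3 or fewer. The other 2 are second starts of Rxra and Lipe. Of the other members that rose, Apoe has windows with 10 to 12 CpG, and no window was found for Fabp4.

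The pathway was followed further through 80 other genes of the table, chosen with earlier results of these data known. Of these 65 were tested, and 8 rose and 4 fell, 12.3% and 6.15%, against 6.28% and 4.02% of all tested genes. Their median log2 fold change was 0.13. Increases were found in the monoglyceride lipase genes Abhd6 and Mgll. Abhd6 was at 13.1, 13.8 and 15.3 CPM in the Suz12 cKO libraries, against 3.12, 4.61, 3.53 and 3.53 CPM in wild type, far apart (log2 fold change 1.93, SE 0.20, adjusted p = 0.00116). Mgll averaged 335 ± 33 CPM in Suz12 cKO and 209 ± 19.5 CPM in wild type (log2 fold change 0.68, SE 0.11, adjusted p = 0.00559). On the log2 scale, increases were 1.34 for the acyl-CoA synthetase gene Acsl3 and 0.56 for the fatty acid transport gene Slc27a1. Agpat2 and Lpcat2, acyltransferases of glycerolipid and phospholipid assembly, rose by 0.99 and 1.10, the transporter gene Abca9 by 1.63 and the lysosomal sphingomyelinase gene Smpd1 by 0.50. The fatty acid transport gene Slc27a4 fell by 0.57, Ch25h, which makes the oxysterol 25-hydroxycholesterol, fell by 0.84, the seipin gene Bscl2 fell by 0.42 and the saposin precursor gene Psap fell by 0.32. Of the 12 called genes, Mgll and Abhd6 were called in all 7 fits that leave out 1 library. Without Suz12 cKO replicate 1, 2 or 3 the numbers that rose were 4, 5 and 3, and those that fell 1, 0 and 2. Without wild type replicate 1, 2, 3 or 4, 6, 12, 3 and 7 rose, and 0, 6, 0 and 0 fell. Over all genes the same 7 fits gave, in this order, 479, 447, 562, 651, 1515, 546 and 683 higher. They gave 309, 268, 480, 299, 885, 317 and 411 lower.

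Pparg, the nuclear receptor that specifies alveolar macrophages and is known to drive Fabp4 and Cd36, was at 202, 219 and 216 CPM in the Suz12 cKO libraries, against 170.4, 254, 221 and 209 CPM in wild type. The groups overlapped throughout (log2 fold change -0.01, SE 0.13, adjusted p = 0.982). Srebf1, a lipogenic LXR target, differed by 0.01 (SE 0.12, adjusted p = 0.985). Lipa, the lysosomal acid lipase, averaged less in Suz12 cKO by 0.30 on the log2 scale and was not called (adjusted p = 0.172). Of the 9 listed receptors for lipoproteins and lipids outside the 34, edgeR called 0 (2 with an unadjusted p under 0.05) and DESeq2 called 1, Lrp1. Of the 9 tested nuclear receptors and coregulators, edgeR called 0 (1 with an unadjusted p under 0.05) and DESeq2 called 0.

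**Figure D5:**
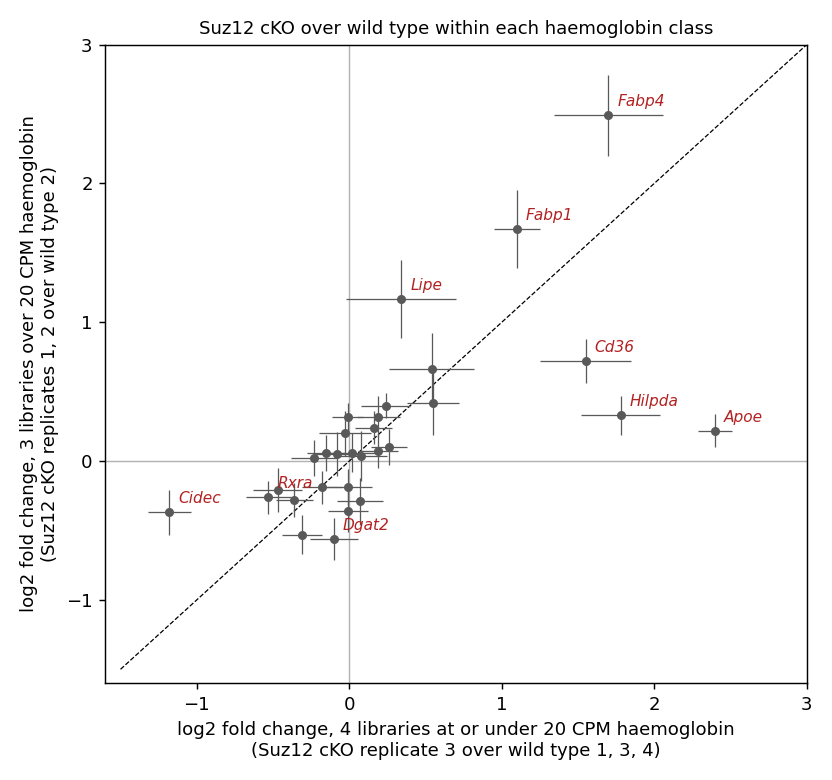
Log2 fold change of Suz12 cKO over wild type within the 4 libraries low in haemoglobin on the horizontal axis and within the 3 high ones on the vertical axis, with standard errors as bars and a dashed line of equality, for the 30 members whose SE was under 1 in both. Fabp4 and Fabp1 lie far above 0 on both axes, and Apoe and Hilpda lie far to the right, at 0.22 and 0.33 on the vertical axis.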

How the data were processed

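RNA was measured by sequencing in alveolar macrophages sorted from 3 Suz12 cKO and 4 wild type chimeras, grouped by their titles. Per the labels' protocols, TruSeq libraries of polyadenylated RNA were read as single-end reads of 85 bp, with a stated yield lower than the deposited counts, which held 48104653 to 79281431 per library; no source used here says why. The authors deposited whole-number counts per gene, made with featureCounts on mm10, per the submitters' processing notes; aligner, annotation, strand setting and treatment of shared reads were not stated. The 7 single-sample files held the same counts as the table. The table also gives gene lengths, deposited by the authors, from which TPM was computed here.

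Symbols and positions came from RefSeq GRCm38.p6, the assembly of mm10, by Entrez number (25275 of 27179 genes). Genes passing filterByExpr (minimum count 10, minimum total 15; 14436 genes, 99.98% of counts) were scaled with TMM and tested with edgeR 4.0.16 in R 4.3.3, by the two-sided quasi-likelihood test with genotype as the only term and Benjamini-Hochberg adjustment. SE is the log2 fold change divided by the square root of F. DESeq2 1.42.0 was an alternative. The fit was tested on simulated counts. Log2 CPM of replicates correlated with Pearson's r of 0.916 to 0.969 across genes, so none was a copy. The labels call the samples individuals. The p-values set the difference between genotypes against the spread between individuals, which the fit estimates partly from all genes. Where a fit holds 1 library of a genotype, the spread within that genotype is not measured. The members and lists were chosen with earlier results of these data known. Named with values per library were the called members, Cd36, Fabp4 and the most abundant member of each role by TPM; other members given that way were chosen after their values were seen; of the other lists, the called genes and the 3 most abundant markers. Pparg, Srebf1 and Lipa were added by name after their values were seen; so was the set of neighbours named. Calls within the list of monocyte and interstitial macrophage markers are not reported here.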

Additional observations from a re-analysis of the deposited data

Results flagged for a closer look

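Within the 4 wild type libraries, replicate 2 stood apart from the other 3 by a gap test on several values, of 57 sets of values checked. Hilpda was at 189 CPM there, against 10.5 CPM in the next library. Apoe was at 434 CPM, against 224 CPM in the next. Abcg1 was lowest there at 2317 CPM, against 2704 CPM in the next. The haemoglobin sum was 56.6 CPM, against 5.17 CPM, and the sum of erythroid markers was 58.8 CPM, against 5.48 CPM. The sum over the alveolar epithelium list was also highest there, at 157 CPM, against 71.6 CPM. Of its genes Scgb1a1 was at 46.8 CPM there and 0.954 to 2.33 CPM in the other wild type libraries. Cdh1 was at 64.4 CPM there and 44.6 to 49.7 CPM in the others. Fibroblast and smooth muscle markers summed to 23.1 CPM there, against 2.58 CPM, and lymphocyte markers to 4.17 CPM, against 0.834 CPM. In all, 8 of 57 sets were picked out. Chance picks out about 1 in 20 independent sets, but these are not independent, since haemoglobin makes up most of the erythroid sum and all 8 concern the same library. Suz12 cKO libraries, of which there are 3, were not checked in this way. The part of this library in the lipid results was not tested beyond the fits without it.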

How the results depend on the processing

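Across 15 alternatives, Fabp1 and Fabp4 kept their call in each, Cd36 in 11, Apoe and Rxra in 7 and Plin1 in 5, all with their direction. With the DESeq2 Wald test 1457 genes rose, with 10 members higher and 3 lower. With the replicate block 585 genes rose and 278 fell, 0 members fell, and 4 pathway genes rose and 0 fell; Apoe, Plin1 and Rxra lost their call. Same-numbered libraries deviated together with correlations of -0.041, 0.242 and 0.158, and differently numbered ones with -0.256 to 0.117. For Suz12 cKO replicates 2 and 3 the same-numbered wild type library gave the highest value, for replicate 1 it did not. So few values cannot tell whether the numbers pair the samples. With a term for haemoglobin class 4 members fell. Within the 4 libraries low in haemoglobin 367 genes and 0 pathway genes fell. Within the 3 high ones 328 genes, 0 members and 0 pathway genes fell, and 4 pathway genes rose. Leaving out 1 library at a time gave 447 to 1515 genes higher and 268 to 885 lower, 2 to 10 members higher and 0 to 2 lower, and 3 to 12 pathway genes higher and 0 to 6 lower. The median of the members stayed between 0.06 and 0.14. The cause of these changes was not tested, beyond the smaller number of libraries in some fits.

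Signs turned only for members near 0 that were not called: 21 values. Within the 3 high libraries the log2 fold changes were 0.06 for Scarb1, 0.04 for Fabp5, 0.02 for Soat1 and -1.13 for Apoc1. Within the 4 low ones they were 0.08 for Fabp5, 0.07 for Abca1, -0.01 for Abcg1, -0.03 for Rxrb and -0.08 for Mylip. With the haemoglobin term they were 0.07 for Fabp5, -0.25 for Apoc1 and -0.01 for Mylip. Without 1 library, Scarb1 ran between -0.07 and 0.00, Fabp5 between -0.28 and 0.02, Dgat2 between -0.23 and 0.14, Pnpla2 between -0.01 and 0.12, Apoc1 between -0.46 and 1.26 and Mylip between -0.05 and 0.12. Depth limits Cidea, Vldlr, Apoc1 and Apoc2, which held few counts.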

Other observations

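The 3 protein-coding genes on each side of each called member in RefSeq were read beside it, 36 in all. Of these 22 were tested, and edgeR called 2 higher, Nectin2 and Bcam beside Apoe, and 0 lower. Over all tested genes 6.28% were called higher and 4.02% lower. A link between these 2 genes and Apoe was not tested. Fabp4 lies in a cluster of fatty acid-binding protein genes on chromosome 3. Of these Fabp9, Fabp12 and Pmp2 had no count in any library, and Fabp5, 188 kb away, was not called. Impa1, 103 kb on the other side of Fabp4, averaged 65.7 ± 1.66 CPM in Suz12 cKO and 64.0 ± 6.25 CPM in wild type (edgeR log2 fold change 0.04, adjusted p = 0.875). Beside Fabp1, the muscle methyltransferase gene Smyd1, 8.91 kb away, averaged 2.89 ± 1.13 CPM in Suz12 cKO and 0.612 ± 0.315 CPM in wild type, and was not called (adjusted p = 0.0752). Krcc1 averaged 101 ± 17.6 CPM in Suz12 cKO and 105 ± 11.7 CPM in wild type. The neighbours of Cd36 had at most 3.17 CPM in any library. Beside Plin1, Ticrr averaged 1.33 ± 0.431 CPM in Suz12 cKO and 3.94 ± 1.20 CPM in wild type, without overlap (log2 fold change -1.57, edgeR adjusted p = 0.0546). Beside Rxra, Wdr5 averaged 40.4 ± 3.98 CPM in Suz12 cKO and 51.9 ± 6.92 CPM in wild type, without overlap (log2 fold change -0.36, edgeR adjusted p = 0.117).

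On chromosome 7, Tomm40, 0.003 kb from Apoe, averaged 53.5 ± 3.80 CPM in Suz12 cKO and 51.7 ± 7.01 CPM in wild type (adjusted p = 0.865). Past it, the adhesion genes Nectin2 and Bcam, 15.3 and 54.8 kb from Apoe, both rose. Nectin2 averaged 10.1 ± 2.42 CPM in Suz12 cKO and 2.36 ± 0.636 CPM in wild type (edgeR log2 fold change 2.10, SE 0.30, adjusted p = 0.00390). Bcam averaged 193 ± 37.0 CPM in Suz12 cKO and 26.3 ± 9.68 CPM in wild type (log2 fold change 2.87, SE 0.28, adjusted p = 9.2e-04). Both were named after their values were seen.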
